A study of Mus musculus with 6 samples.

Results

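The Fc receptors and ITAM adaptors form a small immune receptor family in cortex, taken here as 9 genes chosen by symbol from the 56826 gene rows of the deposited table. They are the IgG receptors Fcgr1, Fcgr3, Fcgr4 and Fcgr2b, the receptors Trem1 and Trem2, the adaptor chains Fcer1g and Tyrobp, and the kinase Syk. Each symbol matched 1 row. RNA was sequenced from wild-type C57BL/6 mice in 2 groups: cortex around the injury, taken 24 h after a traumatic brain injury (called TBI, with 3 libraries) and normal brain cortex (control, 3 libraries). How the injury was made, and whether each library came from a separate animal, is not given in the sources used here. Total counts were 68808787 to 72169720 in the TBI libraries and 67252519 to 83929814 in the control libraries. The p-values below measure the spread between these libraries, which may be technical in part.

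Fc gamma receptors bind the constant part of IgG and let myeloid cells respond to antibody-coated material. Fcgr1, Fcgr3 and Fcgr4 are activating and signal through the common gamma chain encoded by Fcer1g, while Fcgr2b is the inhibitory member and carries its own inhibitory motif, the ITIM. Trem1, a receptor of neutrophils and monocytes that amplifies inflammation, and Trem2, a lipid-sensing receptor of microglia and macrophages, signal through DAP12, the product of Tyrobp. In both adaptors the signal starts at the ITAM, a pair of tyrosines that Src family kinases phosphorylate and to which Syk then binds. In brain these genes are mainly known from microglia and from myeloid cells that enter after injury.

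The motifs that set adaptors and inhibitory receptor apart can be read in the coding sequence. The 3 stretches below come from the GENCODE M21 transcripts (GRCm38) and are shown because the ITAM and ITIM define the roles used in the results. Capitals mark the tyrosine codons, TAT or TAC.
Tyrobp: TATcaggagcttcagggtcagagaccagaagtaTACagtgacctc
Fcer1g: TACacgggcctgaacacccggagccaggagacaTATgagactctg
Fcgr2b: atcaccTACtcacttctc
The Tyrobp stretch spans chr7:30415670-30417382 on the plus strand and the Fcer1g stretch chr1:171229889-171230072 on the minus strand, each across 2 coding exons. The Fcgr2b stretch lies at chr1:170961071-170961088 on the minus strand, within 1 coding exon. The ITAM was searched in frame as a tyrosine codon, 2 codons, a leucine or isoleucine codon, 6 to 12 codons and the same 4-codon block again. Of the 9 coding sequences only those of Fcer1g and Tyrobp held a match, 1 each, and both matches were 45 bases long. The ITIM pattern is looser, and besides its match in Fcgr2b it also occurred 3 times in Fcgr1 and once each in Fcgr4, Fcer1g and Tyrobp, as a match of letters only.

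In injured cortex 8 of the 9 genes were higher, 0 were lower, and Trem2 did not pass the test. All 9 passed the filter on low counts. Against the 8 of 9 stands a background of 9.12% of all 42762 gene rows tested that were called higher (8.36% were called lower), and of 16.5% of the 14554 protein-coding rows matched by symbol (edgeR quasi-likelihood test, adjusted p under 0.05 over all rows). The median log2 fold change was 2.22 over the 9 genes and 0.006 over all rows tested. Because the 9 genes and the lists below were chosen with earlier results of these data known, such contrasts with the background are descriptive only. In every one of the 9 genes the lowest TBI library lay above the highest control library, which was also true of 23.2% of all rows tested. The order of the log2 fold changes ran from Trem1 through Fcgr4, Fcgr2b, Fcgr1, Fcer1g, Fcgr3, Syk and Tyrobp to Trem2. In bulk tissue, more cells of a type and more RNA per cell cannot be told apart.

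**Figure D1:**
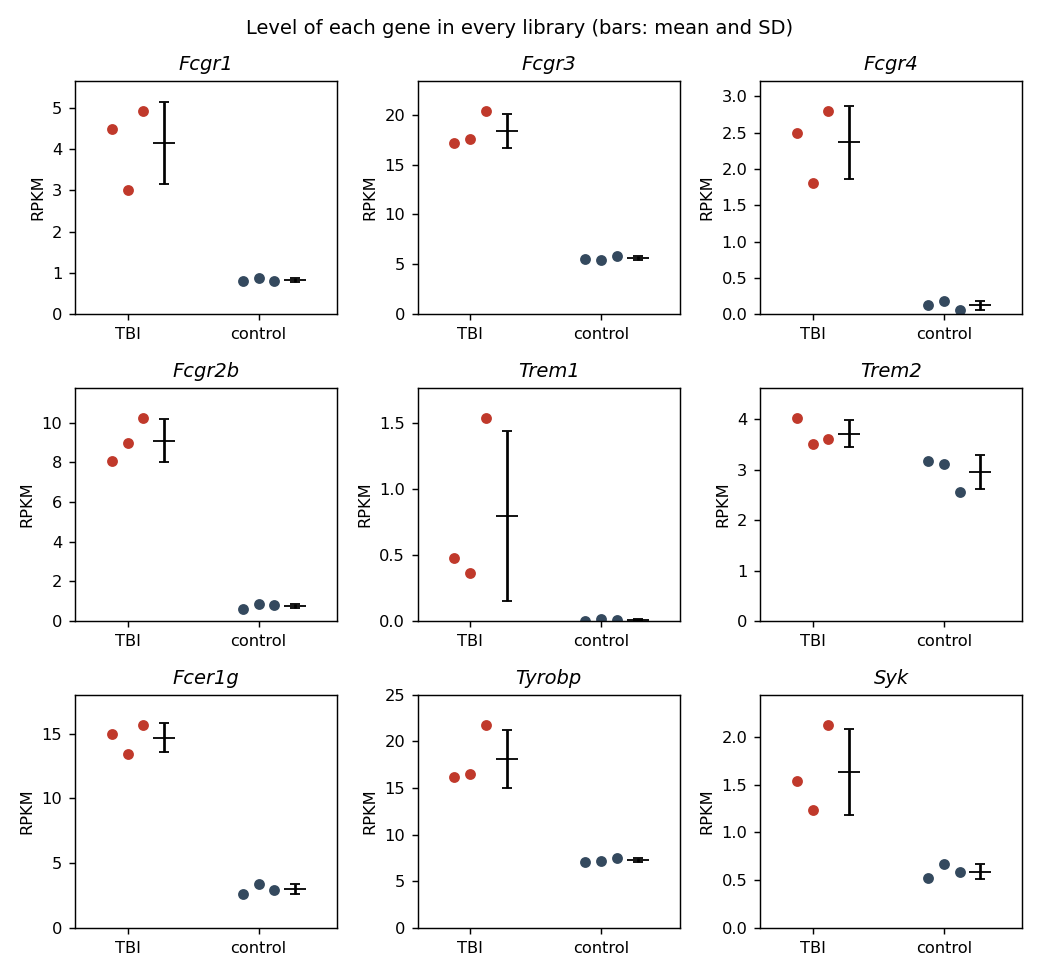
Level of each of the 9 genes in RPKM (reads per kilobase and library size) in every library, with TBI on the left and control on the right; points are libraries and bars give the mean and SD of 3 libraries. The groups do not overlap in any panel, and they lie closest together for Trem2.

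Among the activating IgG receptors, Fcgr3, the low-affinity receptor, had the highest level. It had 17.1, 17.6 and 20.3 RPKM in the TBI libraries, against 5.55, 5.47 and 5.89 RPKM in the control libraries. The groups were far apart relative to their own spread, with means of 18.3 ± 1.73 RPKM in TBI and 5.64 ± 0.222 RPKM in control (SD, n = 3 each, as for all means below). Fcgr3 rose, with 1.62 ± 0.10 (SE) as its log2 fold change (edgeR adjusted p = 3.21e-07). The gene lies on chromosome 1 (171051169 to 171065937, minus strand, mm10), in a cluster with Fcgr4 and Fcgr2b.

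Fcgr1, the high-affinity IgG receptor on chromosome 3 (96282909 to 96293969, minus strand), had 4.50, 3.02 and 4.91 RPKM in the TBI libraries, against 0.810, 0.876 and 0.805 RPKM in the control libraries. The control libraries were nearly equal, while TBI replicate 2 was the lowest of the injured libraries. Its log2 fold change was 2.24 ± 0.17 (edgeR adjusted p = 2.83e-06).

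Fcgr4, a receptor of intermediate affinity for mouse IgG2 subclasses on chromosome 1 (171018926 to 171029761, plus strand), was barely counted in normal cortex. It had 222, 163 and 240 counts in the TBI libraries, against 11, 17 and 6 counts in the control libraries. These counts correspond to 2.36 ± 0.505 RPKM in TBI and 0.124 ± 0.0634 RPKM in control. The log2 fold change was 4.19 ± 0.32 (edgeR adjusted p = 2.74e-06), and the ratio of the summed counts, scaled by the summed library totals, was 19.5 (95% exact counting interval 13.8 to 28.4). Such intervals cover counting error only. They take each count as an independent fragment, so they are too narrow where counts overstate fragments.

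The inhibitory receptor rose as well. Fcgr2b, on chromosome 1 (170960558 to 170976122, minus strand), had 8.06, 8.95 and 10.2 RPKM in the TBI libraries, against 0.625, 0.838 and 0.832 RPKM in the control libraries. Its log2 fold change was 3.48 ± 0.14 (edgeR adjusted p = 2.28e-08). In control its level lay next to that of Fcgr1 and overlapped with it, while in TBI every library had more Fcgr2b than Fcgr1.

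The makeup of the Fc gamma receptor transcripts therefore differed between the groups. Of the summed RPKM of the 4 receptors, Fcgr2b made up 26.8 ± 1.75% in TBI and 10.4 ± 1.39% in control, and Fcgr3 made up 54.2 ± 1.67% in TBI and 76.6 ± 2.06% in control. Fcgr4 made up 6.94 ± 1.04% in TBI and 1.69 ± 0.877% in control. The share of Fcgr1 overlapped between the groups, at 9.62 to 14.0% in TBI and 10.6 to 11.9% in control. The ratio of Fcgr1, Fcgr3 and Fcgr4 together to Fcgr2b was 2.99, 2.50 and 2.74 in the TBI libraries, against 10.4, 7.80 and 8.11 in the control libraries. The groups did not overlap, and the difference was -1.67 ± 0.15 on the log2 scale (SE; two-sided exact permutation test, p = 0.1). A comparison of 3 against 3 libraries cannot give a smaller p than 0.1, so none of the 13 ratios computed could pass 0.05, and the Benjamini-Hochberg adjusted p was 0.1 for each of them.

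Fcgr2b and Fcgr3 have near-identical stretches, which the counting could have split between them. Of the windows of 50 bases in the transcript of each gene, 11.7% of those of Fcgr2b occur in Fcgr3 and 12.8% of those of Fcgr3 occur in Fcgr2b. With windows of 100 bases the shares are 3.23% and 3.53%. None of the other 7 genes shared a window of either length with another gene. The handling of reads with several matches is not given in the sources used here, so the levels of Fcgr2b and Fcgr3 are uncertain. The share of windows does not bound this error. In the control libraries Fcgr3 had 505, 549 and 669 counts, against 65, 96 and 108 counts of Fcgr2b. Shared reads counted for the wrong gene would weigh more on Fcgr2b there, and so on its fold change, share and ratio. How many reads were shared was not tested.

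**Figure D2:**
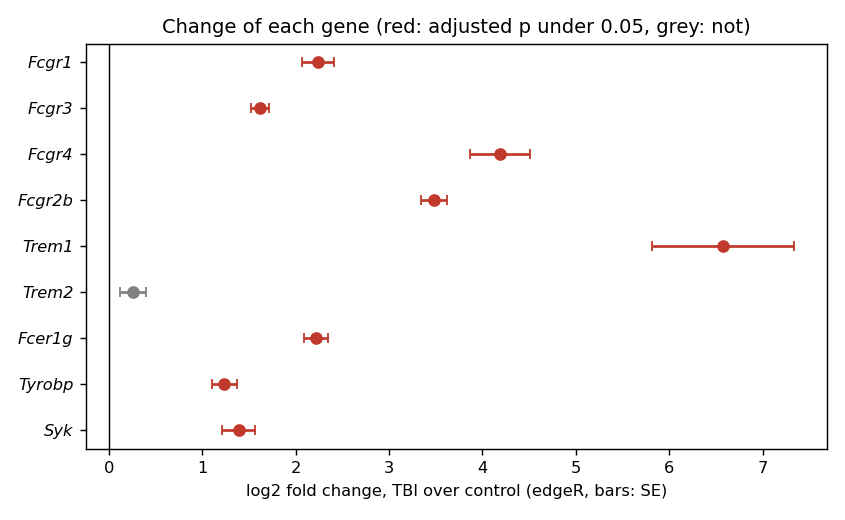
Log2 fold change of each of the 9 genes, TBI over control, with its SE from edgeR; red marks an adjusted p under 0.05 and grey a larger one. Values run from 6.57 for Trem1 to 0.26 for Trem2, the only grey point.

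The TREM receptors stood at opposite ends of the family. Trem1, on chromosome 17 (48232538 to 48246924, plus strand), had 103, 80 and 319 counts in the TBI libraries, against 0, 3 and 2 counts in the control libraries. TBI replicate 3 was far above the other injured libraries, and all 3 were above control. The log2 fold change was 6.57 ± 0.76 (edgeR adjusted p = 9.09e-05), and the ratio of the scaled summed counts was 107 (95% exact counting interval 45.4 to 330). Leaving out TBI replicate 3 gave 5.66 and leaving out control replicate 2 gave 7.23, and the gene was called in both fits. The ratio of summed counts was 57.5 and 179 in the same cases. In RPKM, Trem1 was the lowest of the 9 genes in both groups, at 0.792 ± 0.643 in TBI and 0.00709 ± 0.00673 in control.

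Trem2, on the same chromosome (48346401 to 48352276, plus strand), had 4.02, 3.52 and 3.60 RPKM in the TBI libraries, against 3.17, 3.12 and 2.56 RPKM in the control libraries. The groups did not overlap, but they were close, with the lowest TBI value only 1.11 times the highest control value. The log2 fold change was 0.26 ± 0.14 (edgeR adjusted p = 0.241). Over 12 alternative fits it stayed between 0.16 and 0.32, with adjusted p from 0.215 to 0.565. A p that misses the threshold does not show that the level was the same.

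The levels of the TREM receptors were set against each other within each library. Trem1 was 0.119, 0.104 and 0.426 times Trem2 in the TBI libraries, against 0, 0.00429 and 0.00308 times in the control libraries. With 0.05 RPKM added to each level, because Trem1 was at 0 in 1 control library, the log2 difference was 3.30 ± 0.63 (exact permutation p = 0.1). With 0.01 RPKM added it was 5.01, so its size depends on the added value, and without TBI replicate 3 it was 2.69.

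Both adaptor chains rose. Tyrobp, on chromosome 7 (30413788 to 30417582, plus strand), had 16.2, 16.5 and 21.7 RPKM in the TBI libraries, against 7.12, 7.20 and 7.49 RPKM in the control libraries. TBI replicate 3 was the highest, and the groups were well apart. Tyrobp rose by a log2 fold change of 1.24 ± 0.13 (edgeR adjusted p = 4.22e-05). Fcer1g, on chromosome 1 (171229572 to 171234368, minus strand), had 14.9, 13.4 and 15.7 RPKM in the TBI libraries, against 2.62, 3.40 and 2.92 RPKM in the control libraries. Its log2 fold change was 2.22 ± 0.13 (edgeR adjusted p = 2.71e-07), close to that of Fcgr1.

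In normal cortex the DAP12 transcript was the more abundant adaptor, and in injured cortex the levels approached each other. The ratio of Fcer1g to Tyrobp was 0.921, 0.817 and 0.720 in the TBI libraries, against 0.368, 0.473 and 0.389 in the control libraries. The groups did not overlap, with means of 0.819 ± 0.1004 in TBI and 0.410 ± 0.0554 in control (exact permutation p = 0.1). The ratio of Trem2 to its adaptor Tyrobp went the other way, at 0.248, 0.214 and 0.166 in the TBI libraries, against 0.445, 0.433 and 0.341 in the control libraries. The log2 difference was -0.97 ± 0.21 (exact permutation p = 0.1), so there was less Trem2 transcript per Tyrobp transcript in each injured library than in any control library.

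Syk, the kinase that docks on phosphorylated ITAMs, lies on chromosome 13 (52582329 to 52648792, plus strand). It had 1.54, 1.23 and 2.12 RPKM in the TBI libraries, against 0.519, 0.671 and 0.581 RPKM in the control libraries. Syk rose by a log2 fold change of 1.39 ± 0.18 (edgeR adjusted p = 0.000214). The injured libraries differed more among themselves than for any other member except Trem1, with TBI replicate 3 at 1.72 times TBI replicate 2.

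Ordered by RPKM in TBI, Fcgr3 and Tyrobp came first with overlapping libraries, followed by Fcer1g and then Fcgr2b without overlap. Fcgr1 and Trem2 overlapped, as did Fcgr4 and Syk, and Syk and Trem1. In control, Tyrobp lay above Fcgr3 without overlap. Fcer1g and Trem2 overlapped there, as did Fcgr1 and Fcgr2b, and Fcgr2b and Syk. Fcgr2b thus lay below Trem2 in every control library and above it in every TBI library.

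**Figure D3:**
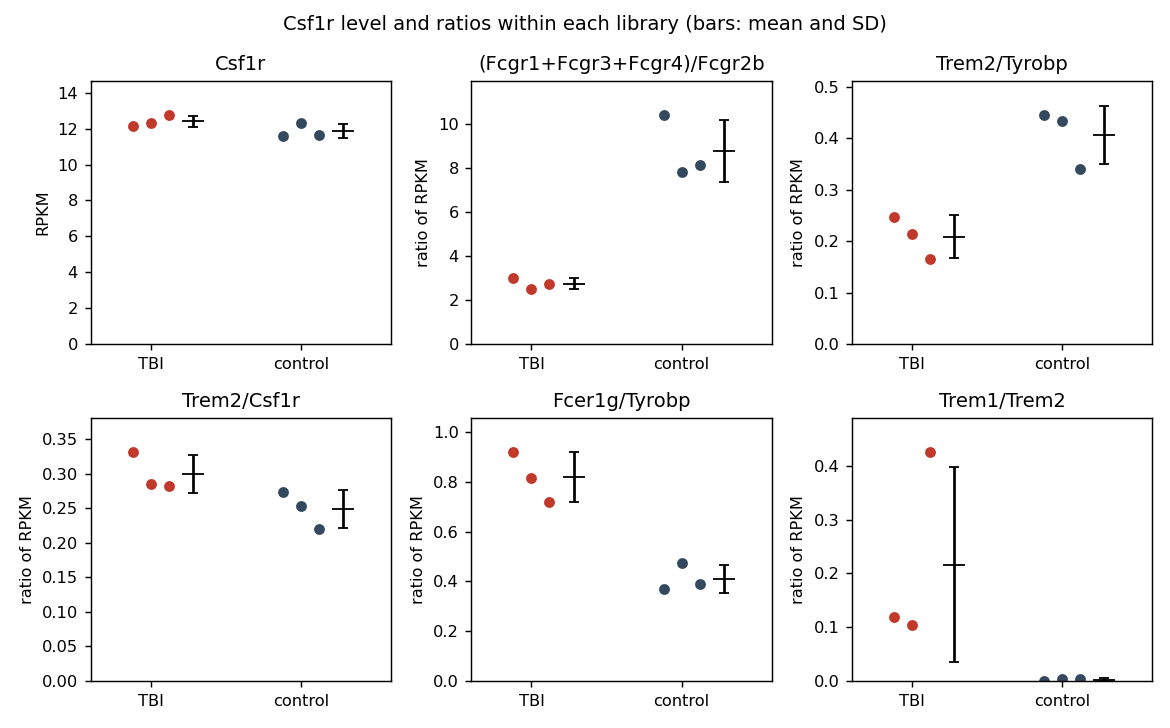
Csf1r level in RPKM and ratios of RPKM within each library, with TBI on the left and control on the right; points are libraries and bars give the mean and SD of 3 libraries. Csf1r overlaps between the groups, and none of the 5 ratios does.

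The changes were also set against Csf1r, the CSF1 receptor of microglia and macrophages, which was not called. Csf1r had 12.1, 12.3 and 12.7 RPKM in the TBI libraries, against 11.6, 12.3 and 11.7 RPKM in the control libraries (log2 fold change -0.01 ± 0.07, edgeR adjusted p = 0.922). Per Csf1r transcript, Fcgr2b was at 0.731 ± 0.0692 in TBI and 0.0645 ± 0.00926 in control, and Fcer1g was at 1.18 ± 0.0805 in TBI and 0.251 ± 0.0251 in control. For Trem2 the ratio was 0.300 ± 0.0272 in TBI and 0.249 ± 0.0272 in control, a log2 difference of 0.27 ± 0.12 (exact permutation p = 0.1). For all 9 genes the ratio to Csf1r did not overlap between the groups, which with a nearly equal Csf1r level largely restates the levels themselves.

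Markers of myeloid cells from blood were higher in the same libraries. The background for the marker counts here and in the next paragraph is 9.12% of all rows tested called higher and 8.36% called lower. Summed over the 9 neutrophil markers found in the table, RPKM was 50.01, 36.8 and 107 in the TBI libraries, against 3.54, 1.503 and 3.50 in the control libraries. Of 6 neutrophil markers tested, 5 were higher, among them the calprotectin genes S100a8 (24.3 ± 12.5 RPKM in TBI and 0.947 ± 0.701 RPKM in control) and S100a9 (33.4 ± 21.8 RPKM in TBI and 0.856 ± 0.435 RPKM in control). S100a8 and S100a9 together made up most of the neutrophil sum in each TBI library. The tested neutrophil marker that was not called was Ngp, at 0.153 ± 0.0723 RPKM in TBI and 0.145 ± 0.0649 RPKM in control. Mpo, Elane and Camp were too low to test. These genes were named after their values were seen. All 8 monocyte markers were higher, and their summed RPKM was 12.5, 9.39 and 19.6 in the TBI libraries, against 2.44, 2.59 and 2.53 in the control libraries. Most of each control sum was Vcan, named after its values were seen. Vcan was at 2.93 ± 0.291 RPKM in TBI and 2.19 ± 0.0206 RPKM in control (log2 fold change 0.34 ± 0.08). Trem1, Syk, Fcgr1, Fcgr4 and Fcer1g followed the same order over the injured libraries as the neutrophil and monocyte sums, with replicate 3 highest and replicate 2 lowest. This order was found in 20.4% of all gene rows tested. Fcgr3, Fcgr2b and Tyrobp were highest in replicate 3 and lowest in replicate 1, and Trem2 was highest in replicate 1. The part of these cells in the changes of the 9 genes was not tested.

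**Figure D4:**
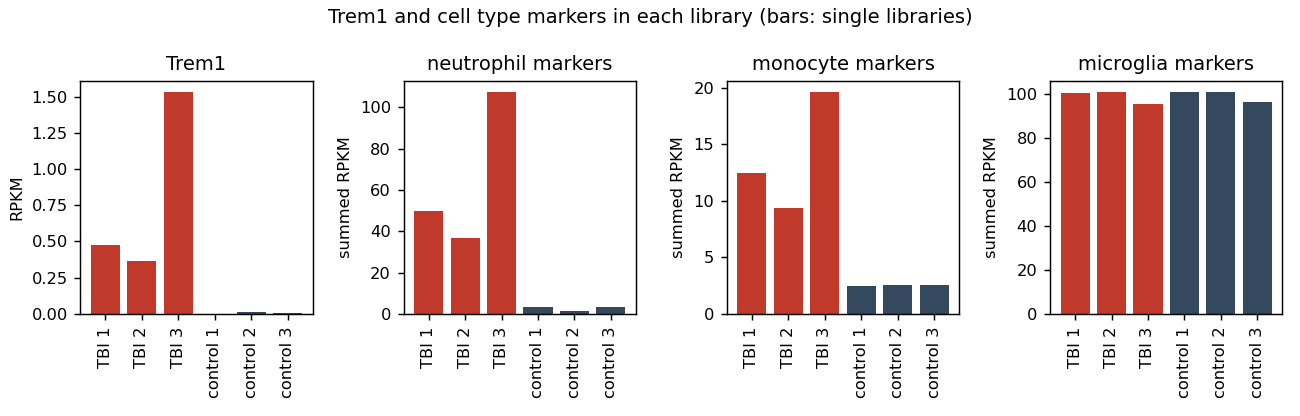
Trem1 level (RPKM) and summed RPKM of neutrophil, monocyte and microglia markers in each library, with TBI in red on the left and control in dark blue on the right; bars are single libraries and start at 0. TBI replicate 3 is highest for Trem1 and for both blood cell lists, while the microglia sums overlap between the groups.

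Microglia markers did not move in 1 direction. Of 11 tested, 4 were higher and 5 lower, and the summed RPKM was 95.6 to 101 in TBI and 96.6 to 101 in control. Tmem119, a marker of resident microglia, was at 4.50 ± 0.424 RPKM in TBI and 6.28 ± 0.471 RPKM in control (log2 fold change -0.56 ± 0.11, edgeR adjusted p = 0.00317). Few markers of cells that carry the IgE receptor, or of lymphoid cells, were high enough to test, and none of those tested was called. Of 7 mast cell and basophil markers only 1 was tested, Kit, named after its values were seen. The mast cell and basophil genes Fcer1a and Ms4a2 averaged 0.0231 and 0.00328 RPKM in TBI and 0.00774 and 0 RPKM in control, and no natural killer cell marker was high enough to be tested. The B cell and T cell lists had 1 tested gene each, Cd79b and Cd247, named after their values were seen. Cd79b was at 0.189 ± 0.0283 RPKM in TBI and 0.0722 ± 0.0252 RPKM in control (log2 fold change 1.27 ± 0.46, edgeR adjusted p = 0.0797). For Cd247 the log2 fold change was -0.04 ± 0.12. Neuron markers were abundant in every library, with summed RPKM of 1059 to 1182 in TBI and 1306 to 1418 in control, and 4 of 8 were lower. Of 5 erythroid genes 4 were higher, with summed RPKM of 604 to 1265 in TBI and 272 to 479 in control. The globin rows Beta-s and Hbb-b1 held nearly the same counts in each library, such as 11297 and 11273 in TBI replicate 1. They are therefore not separate measurements, and the sum counts them more than once. The part of blood in the changes was not tested.

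The kinases and linkers downstream of the ITAM moved largely with the receptors. Of 25 listed, 24 were tested, and 18 were higher and 0 lower, with a median log2 fold change of 1.26. For this list and those below, the background over all rows tested was 9.12% higher, 8.36% lower and a median of 0.006. Of the protein-coding rows, 16.5% were called higher. Fgr, a Src family kinase of myeloid cells, had 0.608 ± 0.215 RPKM in TBI and 0.0176 ± 0.00417 RPKM in control (log2 fold change 5.01 ± 0.38, edgeR adjusted p = 2.67e-06). Rac2, the haematopoietic Rac GTPase, had a log2 fold change of 2.47 ± 0.24. Lcp2, the linker SLP-76, and Pik3ap1, the PI3-kinase adaptor BCAP, were each at 2.01. The 6 tested genes that were not called were Fyn, Zap70, Plcg1, Pik3cd, Malt1 and Grb2, named after their values were seen.

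Inhibitory phosphatases and adaptors were called less often. Of 13 tested, 5 were higher and 0 lower, with a median log2 fold change of 0.29; whether this list differs from the kinases and linkers was not tested. Dok2, an adaptor that restrains tyrosine kinase signalling, was at 2.93 ± 0.27, and Ptpn6, the phosphatase SHP-1, was at 1.97 ± 0.14 (edgeR adjusted p = 1.38e-06). Sla, the Src-like adaptor, was at 0.58 ± 0.13. Dok3 was at 0.56 ± 0.17 (edgeR adjusted p = 0.0378), and it was not called without control replicate 1 or 2 or without TBI replicate 1, 2 or 3 (adjusted p of 0.105, 0.0823, 0.109, 0.0523 and 0.129).

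Other receptors that signal through DAP12, the common gamma chain or a single-tyrosine motif (hemITAM) gave 11 higher and 1 lower of 13 tested, with a median log2 fold change of 4.58. With the 2 genes at 0 in control set to the 3-count floor bounds given below, the median was also 4.58. A further 7 listed genes were too low to test. Clec4e, the C-type lectin Mincle, had 0 counts in all 3 control libraries and was at least 358-fold higher over the summed counts, taking 3 counts over the whole control group as the floor. It had 211, 93 and 707 counts in the TBI libraries, and the bound was 159 without TBI replicate 3 and 225 without control replicate 3. Sirpb1b, also at 0 counts in control, was at least 26.5-fold higher by the same floor, or at least 16.7-fold without control replicate 3. Clec4d, the lectin MCL, had 885 counts in TBI and 2 in control, a ratio of 470 (95% exact counting interval 130 to 3886). Both control counts were in replicate 2, without which the gene was at least 210-fold higher by that floor; without control replicate 3 the ratio was 295. Pilrb2 had 95 counts in TBI and 2 in control, a ratio of 50.4 (95% exact counting interval 13.6 to 423). Both control counts were in replicate 1, without which it was at least 23.6-fold higher; without control replicate 3 the ratio was 31.6. Siglech, a DAP12-coupled lectin of microglia and the only member of this list that was lower, was at 0.925 ± 0.367 RPKM in TBI and 2.90 ± 0.356 RPKM in control; it was named after its values were seen.

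Among inhibitory receptors with ITIMs, 9 of the 14 tested were higher and 1 was lower, with a median log2 fold change of 1.34. Lilrb4, a myeloid inhibitory receptor, was at 12.6 ± 3.94 RPKM in TBI and 0.118 ± 0.0654 RPKM in control (log2 fold change 6.64 ± 0.31, edgeR adjusted p = 5.13e-08). Cd300lf, Lilrb3 and Cd22 had log2 fold changes of 6.26 ± 0.45, 4.25 ± 0.33 and 1.92 ± 0.44. The lower gene was Sirpa, the receptor of the CD47 signal, at -0.40 ± 0.08, named after its values were seen.

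**Figure D5:**
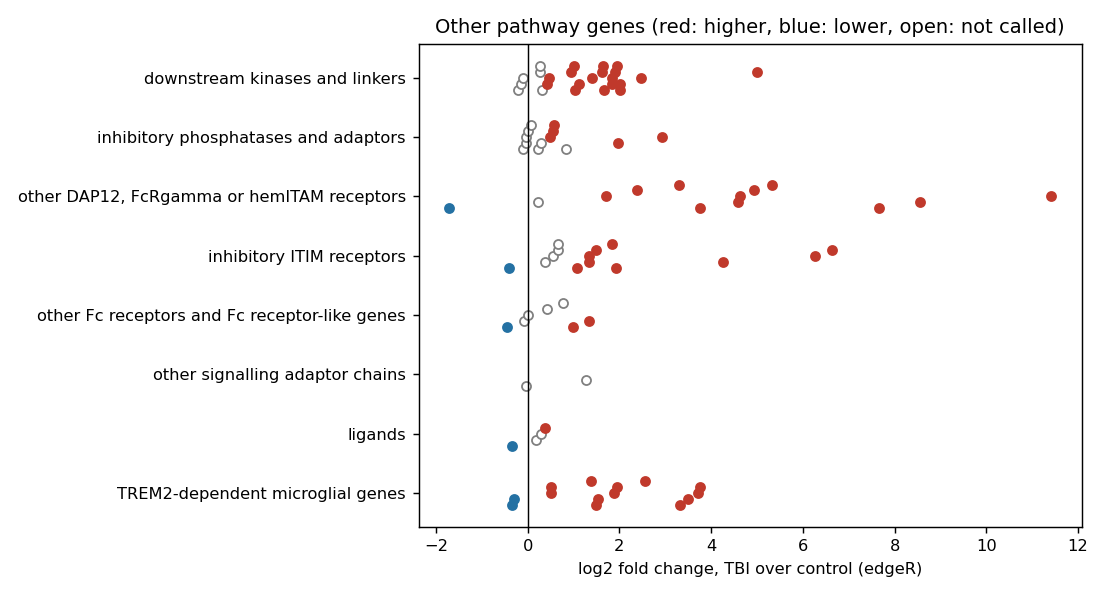
Log2 fold change, TBI over control, of every tested gene in the 8 lists of other pathway genes; each point is a gene, red was called higher, blue was called lower, and open points were not called. The kinases and linkers have 18 red points and no blue one.

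Of 14 other Fc receptor and Fc receptor-like genes listed, 7 were high enough to test, and 2 were higher and 1 lower, beside 9.12% higher and 8.36% lower over all rows tested. Trim21, a cytosolic antibody receptor, was at 1.34 ± 0.20 (edgeR adjusted p = 0.000594), and Fcrls, an Fc receptor-like gene of microglia, had 10.4 ± 0.721 RPKM in TBI and 4.93 ± 0.327 RPKM in control (edgeR adjusted p = 2.12e-05). Fcgrt, the neonatal Fc receptor, had 4.18, 4.92 and 3.84 RPKM in the TBI libraries, against 5.98, 4.91 and 5.94 RPKM in the control libraries, and the groups overlapped. Its log2 fold change was -0.46 ± 0.13 (edgeR adjusted p = 0.0264), and it was not called without control replicate 1 or 3 or without TBI replicate 1 or 3 (adjusted p of 0.0995, 0.104, 0.0822 and 0.0897). Of 7 other signalling adaptor chains, 2 were tested and none was called. Hcst, the DAP10 gene next to Tyrobp on chromosome 7, averaged 0.160 RPKM in TBI and 0.0923 RPKM in control and was too low to test; it was named after its values were seen.

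Of 15 ligand genes listed, 4 were matched and tested; the 11 others, all immunoglobulin constant chains, were not analysed here. Clu, a lipoprotein reported to bind TREM2, was at 287 ± 8.10 RPKM in TBI and 208 ± 8.97 RPKM in control (log2 fold change 0.38 ± 0.08, edgeR adjusted p = 0.00388). Apoe, another such lipoprotein, was at 451 ± 43.1 RPKM in TBI and 542 ± 8.01 RPKM in control. Its log2 fold change was -0.34 ± 0.08 (edgeR adjusted p = 0.0122), and it was not called without control replicate 3 or TBI replicate 1 (adjusted p of 0.0528 and 0.0525). Pglyrp1, a peptidoglycan-binding protein that activates TREM1, was at 4.59 ± 1.29 RPKM in TBI and 3.52 ± 0.882 RPKM in control and was not called, nor was the joining chain gene Igj; both were named after their values were seen.

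Genes listed here as linked to Trem2 in diseased mouse brain were mostly higher, beside the small difference in Trem2 itself. Whether their changes depend on Trem2, and the part of cells from blood in them, was not tested. Clec7a is also in the list of DAP12, gamma chain or hemITAM receptors, and Apoe is also in the ligand list. Of 14 tested, 12 were higher and 2 lower, with a median log2 fold change of 1.72. Clec7a (Dectin-1) was at 3.76 ± 0.32, the chemokine Ccl6 at 3.72 ± 0.20, the matrix protein Spp1 at 3.49 ± 0.17 and the integrin Itgax at 3.32 ± 0.32. Spp1 had 32.9, 33.5 and 46.1 RPKM in the TBI libraries, against 2.49, 3.04 and 3.93 RPKM in the control libraries. The 2 lower genes were Apoe and Ank, at log2 fold changes of -0.34 and -0.30, and neither was called without control replicate 3 or TBI replicate 1. Ank was also not called without control replicate 1 or TBI replicate 2 or 3, and it was named after its values were seen.

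The deposited transcript table holds 12 transcript rows of the 9 genes. In edgeR's fit of all 49090 transcript rows tested, 10 of the 12 were called higher, against a background of 10.1% of rows, and the 2 rows of Trem2 were not called (log2 fold changes of 0.25 and 0.24, adjusted p of 0.243 and 0.254). Rows of the same gene count nearly the same reads, so they do not separate isoforms. The longer Fcgr2b row has 141 more bases than the shorter one. It held 5, 4 and 5 more counts in the TBI libraries, out of 887, 999 and 1087 counts. In the control libraries it held 0 more, out of 65, 96 and 108 counts, too few for so small a share to show. Whether this share differed between the groups was not tested.

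The genes whose profiles lay nearest to those of the adaptors were found by the Euclidean distance of mean-centred log2 CPM (counts scaled to library size) over the 6 libraries, among 12462 other protein-coding genes with a mean of at least 0.5 RPKM. For Tyrobp they were Cyth4, Dap and Tead1, at distances of 0.152, 0.168 and 0.182. For Fcer1g they were Tmem252, Cd68 and Nes, at distances of 0.249, 0.251 and 0.258. With 2 groups of 3 libraries, such distances mainly reflect the size of the difference between the groups.

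Promoter windows of RefSeq (GRCm38.p6) were matched by symbol for 8 of the 9 genes and searched over the 250 bases before each start. The letters GAGGAA, the core bound by PU.1, a factor of myeloid cells, occurred on either strand in 7 of the 10 windows of these genes, from 6 of the 8 genes, and in 23.3% of all 32851 windows. The windows of Fcgr3 overlap and hold the same site, so it is counted more than once among the 7. They lie 6534 and 6543 bases from the start of the Fcgr3 row, and the matching Syk window lies 14553 bases from the start of its row. The letters TTCNNNGAA, the core of STAT sites, occurred in 2 of the 10 windows, those of Fcgr1 and Trem1, and in 7.02% of all windows. The motifs can overlap, but did not in these genes. The 120 bases before the start are shown for the activating receptors Fcgr1 and Fcgr4, for the inhibitory Fcgr2b and for Trem2, with matches in capitals, to set receptors with large changes beside the one that was not called.
Fcgr1: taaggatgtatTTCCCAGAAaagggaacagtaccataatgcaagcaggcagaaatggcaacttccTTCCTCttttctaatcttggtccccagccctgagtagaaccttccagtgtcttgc
Fcgr4: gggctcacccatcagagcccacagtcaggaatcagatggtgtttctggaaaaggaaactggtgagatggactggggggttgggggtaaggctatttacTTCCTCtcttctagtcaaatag
Fcgr2b: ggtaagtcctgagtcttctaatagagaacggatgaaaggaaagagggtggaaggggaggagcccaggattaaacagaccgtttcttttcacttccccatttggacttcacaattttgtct
Trem2: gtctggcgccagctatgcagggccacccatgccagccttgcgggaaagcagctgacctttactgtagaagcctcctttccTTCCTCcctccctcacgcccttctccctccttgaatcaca
These windows lie at chr3:96293970-96294089 (minus strand), chr1:171018806-171018925 (plus), chr1:170976072-170976191 (minus) and chr17:48346281-48346400 (plus). Fcgr1 holds both motifs, Fcgr4 and Trem2 hold the PU.1 core, and Fcgr2b holds neither in its window. The PU.1 core thus occurs in genes with large differences and in Trem2 alike, and a match of letters shows no binding.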

How the data were processed

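A gene table and a transcript table hold, per the file headers, raw counts and RPKM values of the 6 libraries as deposited by the authors; the submitters' processing notes name TopHat2 and mm10. No source used here gives the counting tool or its strand setting. Deposited RPKM equalled the count divided by row length and by column total (relative spread at most 4.31e-06). Rows overlap and 54.2% of counts from 1 to 20 were even, so totals overstate independent fragments, and their size limits the precision of low genes.

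Counts were tested with edgeR 4.0.16 in R 4.3.3 (filterByExpr with minimum count 10 and minimum total 15, TMM, quasi-likelihood F test, Benjamini-Hochberg adjustment over all rows, threshold 0.05, no block). RPKM carries no TMM scaling (TMM factors 1.026 to 1.031 in TBI, 0.9547 to 0.9978 in control). Ratios of RPKM were tested with two-sided exact permutation tests. The edgeR test was tried on simulated data. Among simulated gene rows it recovered 74 of 102 changes of log2 size 1 and 93 of 97 of log2 size 2. Of its calls there, 2.91% were false. Smaller changes, such as that of Trem2, were not simulated. Alternatives were RLE factors, no filter, DESeq2 1.42.0, limma-voom (limma 3.58.1), FANTOM3 clone rows left out, a replicate block, and each library left out.

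The members and lists were chosen with earlier results of these data known. Named genes were the 9 members, up to 4 called genes per list by size of change, up to 3 markers per list and the 3 nearest profiles per adaptor; others are marked. List names were matched to rows by symbol or RefSeq synonym. Coordinates are those of the deposited table.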

Additional observations from a re-analysis of the deposited data

How the results depend on the processing

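The 8 higher members kept their direction and call, and Trem2 stayed uncalled, under each of the 12 alternatives run (RLE factors, no filter, DESeq2, limma-voom, FANTOM3 rows left out, a replicate block and 6 fits that left out 1 library each), so the count of 8 members called higher and of 10 transcript rows called higher did not change. List counts called higher ranged over the alternatives from 16 to 19 for kinases and linkers, 10 to 14 for other DAP12, gamma chain or hemITAM receptors (14 with no filter), 4 to 6 for phosphatases, 9 to 10 for ITIM receptors and 2 to 3 for other Fc receptors, each within 1.5 times the reported count. Counts called lower moved by more. Leaving out 1 library gave 0 to 1 genes called lower among other Fc receptors, 0 to 1 among ligands and 0 to 2 among Trem2-linked genes, and the cause was not tested. All 13 ratios kept their direction under each alternative run for them; an alternative with no added value could not be computed for the 2 ratios with Trem1, and 0.01 RPKM, chosen after seeing the data, was used in its place. Replicate numbers are shared by the groups, but same-numbered libraries were only weakly alike (correlation of deviations 0.0487 to 0.0546, each TBI library highest with its own number), under the threshold of 0.1, so the numbers were not taken as pairs. With the replicate block 8 members were called higher and the ratio of activating receptors to Fcgr2b differed by -1.67 on the log2 scale (exact sign-flip permutation p = 0.25, the smallest that 3 pairs allow). Counting ratios of genes near 0 in control were also computed without each library, chosen after seeing the data. Depth limits Trem1 most, with 5 control counts in all, and Fcgr4, with 34.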
